A study of Mus musculus with 12 samples.

Results

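The 136 genes described here encode voltage-gated sodium and calcium channels, HCN channels and potassium channels, with their auxiliary subunits. They were picked by name from the 54532 gene IDs of the count files: every mouse symbol of the Scn, Cacna1, Cacna2d, Cacnb, Cacng, Hcn and Kcn series that a fixed naming pattern matched. The choice was made with earlier results of these data known. By the ion they pass, 14 belong to sodium channels, 26 to calcium channels, 92 to potassium channels and 4 to the HCN channels, which pass sodium and potassium. Sodium channels start the action potential at the axon initial segment, calcium channels couple depolarisation to transmitter release and to signalling in the cell body, and potassium channels set the resting potential and end the spike. The projection neurons of the striatum are held far below threshold by inwardly rectifying potassium channels. Microglia, astrocytes, vessel walls and the choroid plexus use potassium channels of their own, so these genes report on non-neuronal cells too.

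RNA was sequenced from the striatum of C57BL/6J mice at 7 or 14 days after ischemic stroke. At each time there were wild-type mice (WT), mice of a CRISPR-Cas9 line lacking cGAS (cGAS-KO), an enzyme that senses cytosolic DNA, and mice of a CRISPR-Cas9 line lacking STING (STING-KO), the adaptor that cGAS activates. Each of the 6 groups held 2 libraries, 12 in all, and every group had been through stroke. The labels used here give neither the age of the mice nor whether replicates were different animals, so p-values measure only the spread between these libraries, which may be technical. Totals ran from 15956242 to 22126213 counts per library, where 3 counts equal 0.133 to 0.195 CPM (read counts scaled by the normalised library total). A gene was called where edgeR's quasi-likelihood test gave a Benjamini-Hochberg adjusted p below 0.05 over all 19822 genes tested, and differences are log2 changes ± SE. Of the 136 channel genes, 120 passed the filter on low counts. The other 16 (Cacna1s, Kcna7, Kcna10, Kcne1, Kcne3, Kcnj1, Kcnj15, Kcnk7, Kcnk15, Kcnk16, Kcnk18, Kcnmb3, Kcnv2, Scn4a, Scn10a and Scn11a) averaged at most 0.739 CPM in any group, and Kcnk16 had no count in any library.

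The genotype names are used as labels, since the targeted transcripts did not follow them in every group. Cgas stood at 3.25 and 2.96 CPM in 7-day WT but at 5.55 and 5.65 CPM in 7-day cGAS-KO. Tmem173, the gene of STING, stood at 2.80 and 2.71 CPM in 7-day WT but at 20.9 and 23.8 CPM in 7-day STING-KO. At 14 days both were below WT in their own knockout, Cgas at 4.09 and 6.14 CPM where WT had 12.5 and 7.68 CPM, and Tmem173 at 2.4 and 5.20 CPM where WT had 22.2 and 20.8 CPM. Cgas was also low in 14-day STING-KO, at 4.50 and 3.58 CPM. Markers of the labelled tissue were uneven across the libraries too. Drd1, the dopamine receptor of direct-pathway striatal neurons, stood at 4.76 and 4.44 CPM in 7-day WT but at 375 and 325 CPM in 14-day STING-KO. Slc17a7, a glutamate transporter of synaptic vesicles that marks pyramidal neurons, stood at 1270 and 1522 CPM in 7-day WT but at 10.3 and 51.1 CPM in 14-day STING-KO. In bulk tissue, fewer cells of a type and less RNA per cell cannot be told apart.

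Channel transcripts were most abundant in the 7-day WT and the 14-day STING-KO libraries. Summed over the 120 tested genes, the channel level was 10885 and 11666 CPM in 7-day WT, 3148 and 4011 CPM in 7-day cGAS-KO and 4156 and 3844 CPM in 7-day STING-KO. At 14 days it was 4595 and 5802 CPM in WT; cGAS-KO libraries had 5389 and 5939 CPM and STING-KO libraries 10585 and 11963 CPM. The 7-day WT and 14-day STING-KO libraries did not overlap with those of the other 4 groups. Of the 120 tested channel genes, 63 had their highest group mean in 7-day WT and 40 in 14-day STING-KO. Their lowest group mean lay in 7-day cGAS-KO for 41 and in 7-day STING-KO for 36. Highest and lowest groups were not counted over all genes, so these counts cannot be called particular to channel genes.

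**Figure D1:**
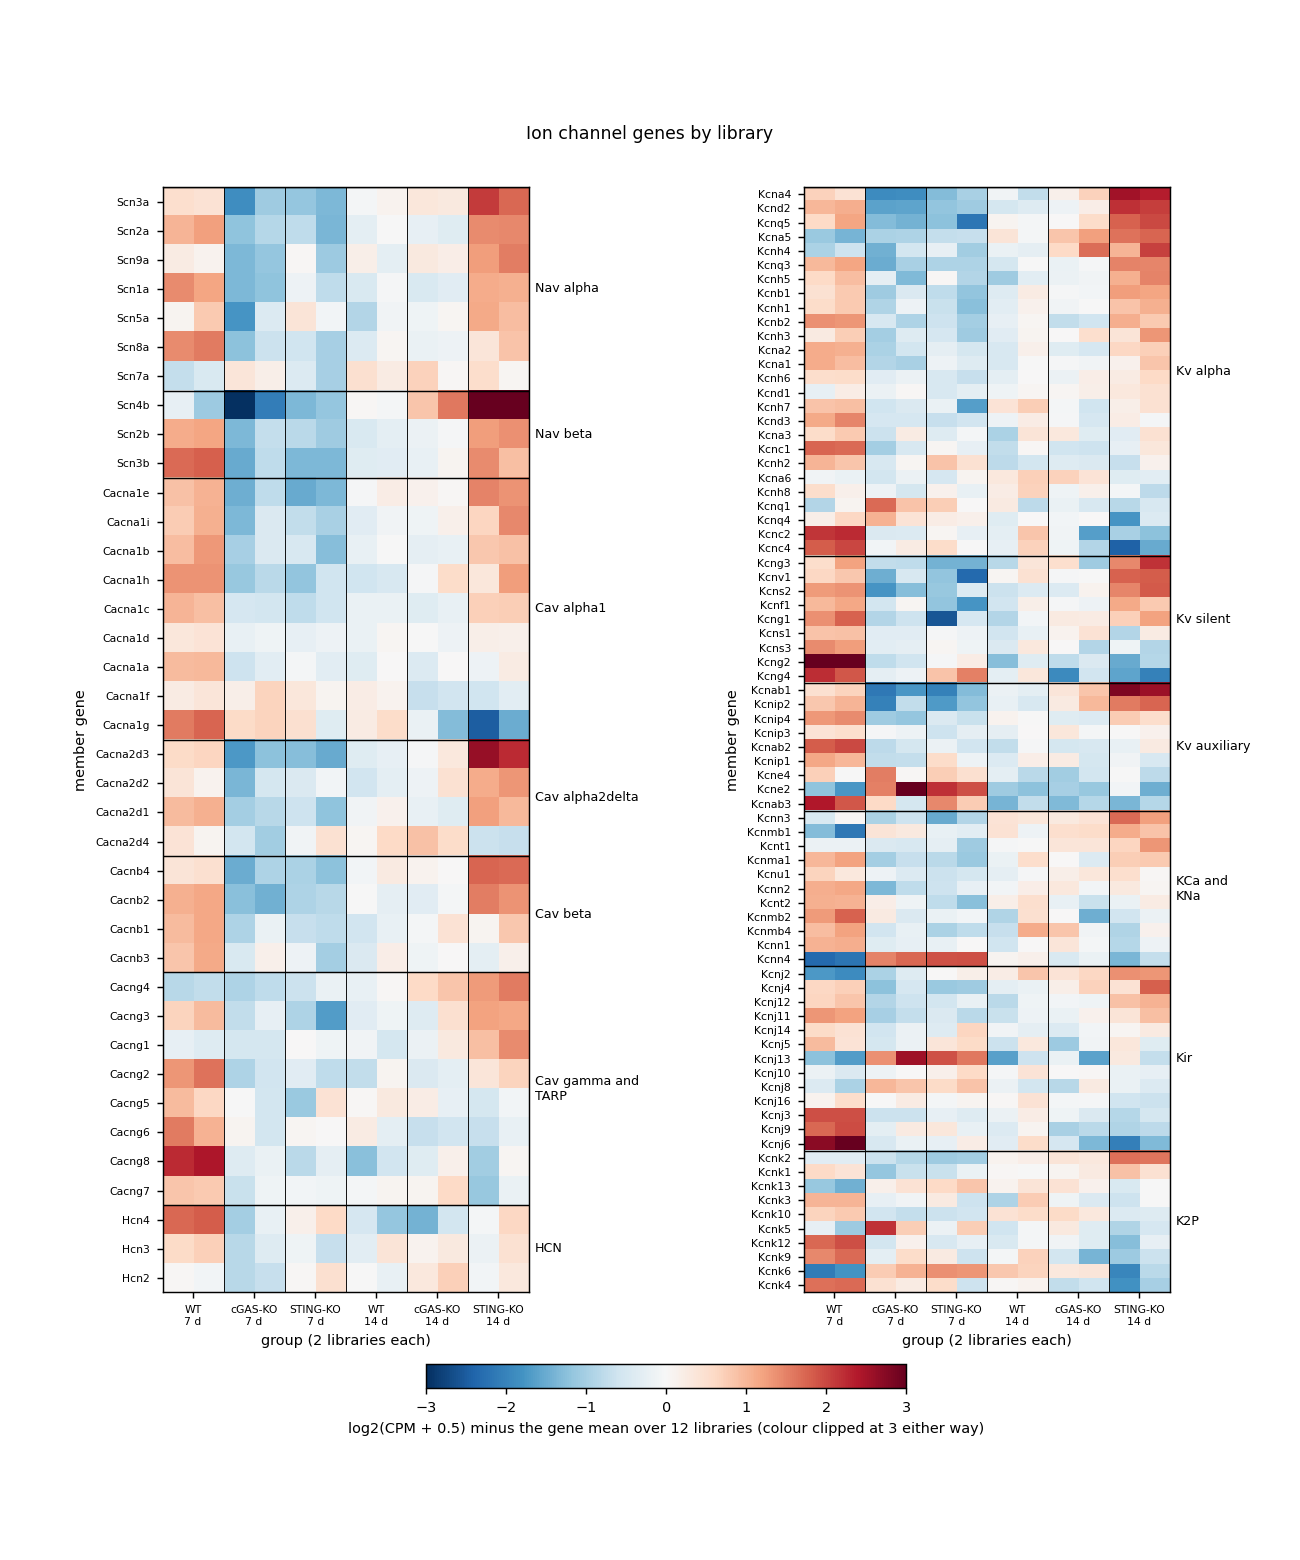
The heat map shows log2(CPM + 0.5) of 116 tested channel genes (rows, by family) in each library (columns, 2 per group), less the gene's mean over 12 libraries, with colour clipped at 3 either way. Most rows are red in the 7-day WT columns and blue in the 7-day cGAS-KO and STING-KO columns, and the 14-day STING-KO columns hold both the red of Scn4b and Kcnab1 and the blue of Cacna1g and Kcnc4.

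At 7 days, 92 of the 120 tested channel genes were lower and 11 higher in cGAS-KO than in WT, where 22.4% of all genes tested were called lower and 27.8% higher. The median log2 change was -1.62 over the channel genes and 0.04 over all genes tested. In STING-KO against the same WT libraries, 83 were lower and 9 higher, where 22.6% of all genes were called lower and 26.3% higher, with medians of -1.52 and 0.03. These comparisons share their WT libraries. The 7-day cGAS-KO and STING-KO libraries themselves gave 0 called channel genes between them (edgeR; 34 at an unadjusted p below 0.05, 5 by DESeq2), where 0.161% of all genes were called and 8.87% had such an unadjusted p.

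At 14 days no channel gene was called between cGAS-KO and WT (edgeR; 26 at an unadjusted p below 0.05, 1 by DESeq2), where 0.0303% of all genes were called and 11% had such an unadjusted p. In STING-KO against WT, 56 were higher and 15 lower, where 16.5% of all genes were called higher and 17.4% lower. The median log2 change was 0.54 over the channel genes and -0.03 over all genes. Against STING-KO, the 14-day cGAS-KO libraries had 46 channel genes lower and 8 higher, where 17.7% and 18.2% of all genes were called. Leaving out replicate 1 of the 14-day cGAS-KO group brought this count of 54 to 36.

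The 7-day cGAS-KO comparison and the 14-day STING-KO comparison have no library in common. Of the 92 channel genes lower in the first, 48 (52.2%) were higher in the second, against 43.0% of all genes lower in the first. These 48 were 85.7% of the 56 channel genes higher in the second, against 58.7% over all genes. Another 11 of the 92 (12%) were lower in both, against 5.28% of all genes lower in the first. These 11 were 73.3% of the 15 channel genes lower in the second, against 6.81% over all genes. Such shares depend on how many genes each comparison called. Of the 120 tested channel genes, 92 were lower in the first and 56 higher in the second. Over all genes tested, 22.4% were lower in the first and 16.5% higher in the second. The all-gene shares are thus not a like base, and no link particular to channel genes can be read from them.

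**Figure D2:**
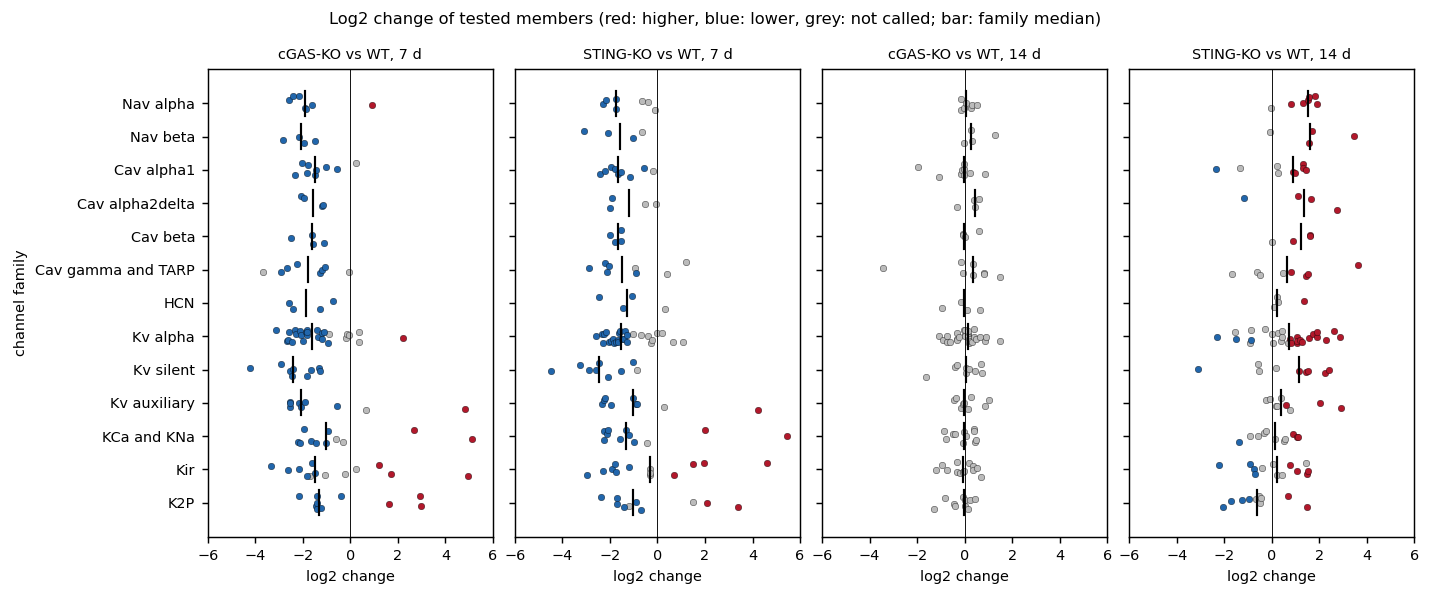
Each point is the log2 change (x axis) of 1 tested channel gene in its family (y axis) for cGAS-KO and STING-KO against WT at 7 and 14 days; red marks genes called higher, blue called lower, grey not called, and the bar is the family median. At 7 days every family median lies below 0 in both panels, and at 14 days the medians lie between -0.06 and 0.43 for cGAS-KO and above 0 for STING-KO, except K2P at -0.60.

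Among the sodium channel pore subunits, Scn2a and Scn8a, which carry the axonal sodium current of principal neurons, were the most abundant per kilobase of exon, at means of 12.4 and 11.3 CPM per kilobase. Scn2a stood at 255 and 295 CPM in 7-day WT, 53.9 and 68.4 CPM in 7-day cGAS-KO and 74.2 and 48.5 CPM in 7-day STING-KO. At 14 days it stood at 102 and 125 CPM in WT; cGAS-KO libraries had 105 and 96.5 CPM and STING-KO libraries 336 and 340 CPM. The 14-day STING-KO libraries were the highest and the 7-day knockout libraries the lowest, with no overlap between them and WT of the same day. The log2 change from WT was -2.17 ± 0.21 in 7-day cGAS-KO (adjusted p = 6.23e-06), -2.17 ± 0.21 in 7-day STING-KO (adjusted p = 6.52e-06) and 1.58 ± 0.20 in 14-day STING-KO (adjusted p = 0.000227), by edgeR.

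Scn8a had the opposite order at the top. It stood at 394 and 438 CPM in 7-day WT and at 189 and 266 CPM in 14-day STING-KO, and between 62.3 and 153 CPM in the other 8 libraries. Its 14-day difference of 0.79 ± 0.24 between STING-KO and WT (edgeR adjusted p = 0.023) lost its call without WT replicate 1 (0.57, adjusted p = 0.19) or STING-KO replicate 2 (0.51, adjusted p = 0.162). Scn1a, the sodium channel of fast-spiking interneurons, was lower by -2.60 ± 0.21 in 7-day cGAS-KO (adjusted p = 1.97e-06) and higher by 1.33 ± 0.20 in 14-day STING-KO (adjusted p = 0.000519). In all, 6 of the 7 tested pore subunits were lower and 1 higher in 7-day cGAS-KO, 4 were lower in 7-day STING-KO and 6 were higher in 14-day STING-KO.

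Sodium channel beta subunits are single-span proteins that tune gating and adhesion. Scn4b, the subunit that gives striatal projection neurons their resurgent sodium current, had a mean level of 58.1 CPM per kilobase and stood at 95.2 and 52.2 CPM in 7-day WT, 11 and 26.4 CPM in 7-day cGAS-KO and 43.6 and 50.1 CPM in 7-day STING-KO. By day 14 the WT level was 116 and 107 CPM; cGAS-KO libraries had 201 and 335 CPM and STING-KO libraries 1009 and 1426 CPM. The 14-day groups were fully separated, with STING-KO highest. The log2 change between 14-day STING-KO and WT was 3.45 ± 0.41 (edgeR adjusted p = 0.000192), the largest called rise in that comparison among channel genes averaging at least 1 CPM. Between 14-day cGAS-KO and WT it was 1.26 ± 0.38 and not called (adjusted p = 0.286). Scn2b and Scn3b were higher by 1.69 ± 0.19 (adjusted p = 0.000119) and 1.55 ± 0.23 (adjusted p = 0.000524) in 14-day STING-KO.

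Per kilobase of exon, Scn4b made up 4.9% and 2.7% of the beta subunit transcripts in the 7-day WT libraries and 56.2% and 64.7% in the 14-day STING-KO libraries. The 14-day WT libraries lay between, at 21.8% and 18.4%. The composition of a bulk sample depends on the cell types in it, whose part in these shares was not tested; the mean log2(CPM + 0.5) of 10 striatal projection neuron markers was 3.94 and 3.84 in 7-day WT and 8.90 and 9.01 in 14-day STING-KO.

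**Figure D3:**
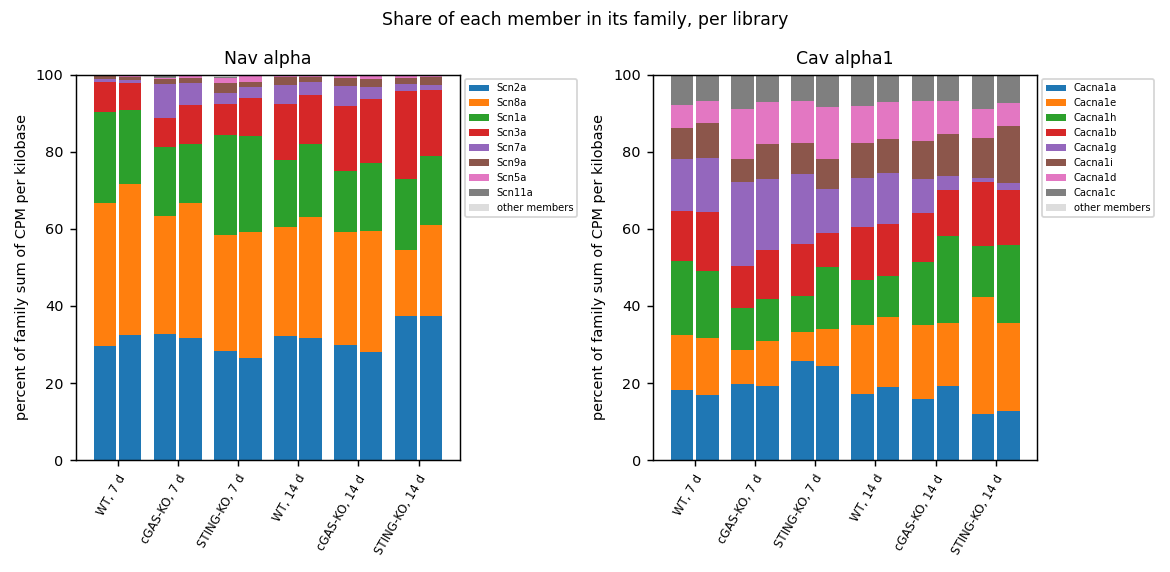
Stacked bars give each member's share, in percent, of its family's summed CPM per kilobase of exon in each of the 12 libraries, for sodium channel pore subunits and calcium channel pore subunits. In the calcium panel the Cacna1g block is nearly absent from the 14-day STING-KO bars.

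Calcium channel pore subunits were called lower for 8 of 9 tested genes in each 7-day knockout group. Cacna1e, the R-type channel, stood at 390 and 437 CPM in 7-day WT, 76.3 and 125 CPM in 7-day cGAS-KO, 73.8 and 82.7 CPM in 7-day STING-KO and 592 and 545 CPM in 14-day STING-KO. The 14-day WT libraries lay at 206 and 249 CPM and the 14-day cGAS-KO libraries at 232 and 217 CPM. The 14-day STING-KO libraries were thus above all others, by 1.32 ± 0.21 over WT (edgeR adjusted p = 0.000674). Cacna1h, a T-type channel, was higher there by 1.42 ± 0.30 (adjusted p = 0.00454), and 5 of the 9 tested pore subunits were called higher.

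Cacna1g, the T-type channel of thalamic relay neurons, went the other way. It stood at 147 and 168 CPM in 7-day WT, 75 and 79.9 CPM in 7-day cGAS-KO and 70.1 and 38.7 CPM in 7-day STING-KO. Its WT level on day 14 was 59.3 and 72.8 CPM; cGAS-KO libraries had 43.3 and 19.8 CPM and STING-KO libraries 8.57 and 17.4 CPM. The 14-day STING-KO libraries were the lowest of all 12, at -2.35 ± 0.41 from WT (edgeR adjusted p = 0.00148). Its 7-day difference of -1.02 ± 0.38 between cGAS-KO and WT (adjusted p = 0.0409) lost its call without any single library of the 4 (adjusted p from 0.0837 to 0.161). In 7-day STING-KO the difference of -1.53 ± 0.38 (adjusted p = 0.00623) lost its call without STING-KO replicate 2 (-1.21, adjusted p = 0.0601).

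Of the calcium channel auxiliary subunits, 4 of 4 alpha2delta, 4 of 4 beta and 6 of 8 gamma and TARP genes were lower in 7-day cGAS-KO, and 2, 4 and 5 of them in 7-day STING-KO. Over all genes, 22.4% and 22.6% were called lower in these comparisons. Cacnb3 in cGAS-KO lost its call without cGAS-KO replicate 1 (-0.88) or WT replicate 2 (-0.96). Cacng7 in STING-KO lost its call without any single library of the groups compared (-0.99 to -0.93). In 14-day STING-KO 3 alpha2delta, 3 beta and 4 gamma and TARP genes were higher and 1 alpha2delta gene was lower. Over all genes, 16.5% were called higher and 17.4% lower there. Of the beta genes, Cacnb1 lost that call without STING-KO replicate 2 (0.46), WT replicate 1 (0.71) or WT replicate 2 (1.07). Cacna2d3, an alpha2delta subunit abundant in striatum, stood at 84.6 and 87.8 CPM in 7-day WT, 16.6 and 23.7 CPM in 7-day cGAS-KO, 23.0 and 19.6 CPM in 7-day STING-KO and 345 and 266 CPM in 14-day STING-KO. The 14-day WT and cGAS-KO libraries lay between 43.7 and 69.7 CPM, below both 14-day STING-KO libraries, and the STING-KO difference from WT was 2.74 ± 0.20 (edgeR adjusted p = 1.95e-05). Cacnb4, a beta subunit that carries pore subunits to the membrane, was higher by 1.62 ± 0.19 (adjusted p = 0.000147). Some 1433 of its 8963 exon bases are shared with an antisense gene, and whether counting used the strand is not given in the sources used here.

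Cacnb3, by contrast, stood at 78.3 and 123 CPM in 14-day WT and at 86.7 and 117 CPM in 14-day STING-KO, which overlap. Among the gamma subunits, most of which are TARPs that traffic AMPA receptors, Cacng8 stood at 150 and 172 CPM in 7-day WT and between 12.9 and 35.2 CPM in all other libraries. The 7-day WT libraries were the only ones to stand apart, by -2.65 ± 0.35 in cGAS-KO (edgeR adjusted p = 9.18e-05) and -2.88 ± 0.36 in STING-KO (adjusted p = 5.94e-05). Cacng4, a TARP known from oligodendrocyte precursors, stood at 31.9 and 33.9 CPM in 7-day WT, 48.4 and 58.0 CPM in 14-day WT and 139 and 168 CPM in 14-day STING-KO. That 14-day difference was 1.53 ± 0.18 (adjusted p = 0.000146).

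Of the HCN channels, which carry the hyperpolarisation-activated current, Hcn2 was the most abundant at 52.0 CPM per kilobase and made up 81.3% to 95.9% of the family in every library. It stood at 162 and 149 CPM in 7-day WT, 89.6 and 98.8 CPM in 7-day cGAS-KO and 163 and 222 CPM in 7-day STING-KO. Only the cGAS-KO libraries stood below WT, at -0.73 ± 0.20 (edgeR adjusted p = 0.0099), a call lost without cGAS-KO replicate 1 (-0.70, adjusted p = 0.0588) or WT replicate 1 (-0.68, adjusted p = 0.0554). The difference between the 7-day knockout groups was -1.03 ± 0.20 and not called (adjusted p = 0.0878).

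Among the voltage-gated potassium pore subunits, 20 of 28 tested were lower and 1 higher in 7-day cGAS-KO, 19 were lower in 7-day STING-KO, and 14 were higher and 3 lower in 14-day STING-KO. Kcnq3, a subunit of the M-current channel that restrains repetitive firing, stood at 229 and 267 CPM in 7-day WT, 41.3 and 59.1 CPM in 7-day cGAS-KO, 61.5 and 60.8 CPM in 7-day STING-KO and 330 and 324 CPM in 14-day STING-KO. The 14-day WT and cGAS-KO libraries lay between 80.4 and 115 CPM, apart from all of these, and the 14-day STING-KO difference was 1.74 ± 0.20 (edgeR adjusted p = 0.000135).

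Kcnd2, the A-type channel of dendrites, stood at 117 and 125 CPM in 7-day WT, 18.9 and 19.1 CPM in 7-day cGAS-KO and 25.5 and 27.7 CPM in 7-day STING-KO. On day 14 the WT libraries had 40.3 and 44.7 CPM; cGAS-KO libraries had 52.4 and 67.5 CPM and STING-KO libraries 268 and 249 CPM. Replicates lay close together and no knockout group overlapped with WT of the same day. The log2 change was -2.66 ± 0.16 in 7-day cGAS-KO (edgeR adjusted p = 2.99e-07) and 2.60 ± 0.15 in 14-day STING-KO (adjusted p = 1.35e-05). Kcna4, another A-type channel, was higher by 2.86 ± 0.25 in 14-day STING-KO (adjusted p = 3.4e-05), with 101 and 89.9 CPM against 16.1 and 10.2 CPM in WT.

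The Kcnc (Kv3) channels let interneurons and relay neurons fire fast. Kcnc4 fell by 2.28 on the log2 scale between 14-day WT, at 19.7 and 38.2 CPM, and 14-day STING-KO, at 3.96 and 8.0 CPM. Its highest values were 84.2 and 96.3 CPM in the 7-day WT libraries, which also had the highest means of pyramidal markers (6.92 and 7.26) and of thalamic markers (6.17 and 5.76) on the log2(CPM + 0.5) scale, and the part of those cells was not tested.

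The electrically silent Kv subunits, which assemble with Kcnb channels and change their gating, were lower for 9 of 9 tested genes in 7-day cGAS-KO and 8 of 9 in 7-day STING-KO. Kcng2 stood at 27.2 and 36.2 CPM in 7-day WT and between 0.719 and 3.60 CPM in the other 10 libraries. Its fall of -4.22 ± 0.35 in 7-day cGAS-KO (edgeR adjusted p = 2.09e-06) was the largest among channel genes averaging at least 1 CPM. Kcns2 was lower by -2.94 ± 0.29 in 7-day cGAS-KO (adjusted p = 7.46e-06) and, at 43.5 and 55.9 CPM against 9.57 and 11.3 CPM, higher by 2.25 ± 0.27 in 14-day STING-KO (adjusted p = 0.00016).

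The Kv auxiliary subunits include Kcnab1 and Kcnab2, which are cytoplasmic beta subunits, and the Kcnip proteins, calcium sensors of Kv4 channels. Kcnab1 stood at 102 and 116 CPM in 7-day WT, 16 and 21.2 CPM in 7-day cGAS-KO and 17.5 and 29.4 CPM in 7-day STING-KO. At 14 days it stood at 64.5 and 59.7 CPM in WT; cGAS-KO libraries had 93.2 and 130 CPM and STING-KO libraries 507 and 438 CPM. The 14-day STING-KO libraries stood far above all others, by 2.93 ± 0.25 over WT (edgeR adjusted p = 3.28e-05). Kcnab2 was highest in 7-day WT instead, with 733 and 812 CPM in 7-day WT and between 120 and 251 CPM in the other 10 libraries.

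Among calcium- and sodium-activated potassium channels, Kcnma1, the BK channel, was lower by -1.96 ± 0.24 in 7-day cGAS-KO (edgeR adjusted p = 3.88e-05), with 51.2 and 64.4 CPM against 207 and 242 CPM. Kcnn4, the intermediate-conductance channel of microglia, lymphocytes and red cells, had the largest rise of all tested channel genes in both 7-day knockout groups. It stood at 0.280 and 0.358 CPM in 7-day WT, 10.4 and 12.4 CPM in 7-day cGAS-KO and 14.2 and 14.3 CPM in 7-day STING-KO. By day 14 the WT level was 3.62 and 3.84 CPM; cGAS-KO libraries had 2.36 and 2.93 CPM and STING-KO libraries 1.02 and 1.89 CPM. The 7-day knockout libraries were the highest and the 7-day WT libraries the lowest, at 5.13 ± 0.38 in cGAS-KO (adjusted p = 1.01e-06) and 5.44 ± 0.37 in STING-KO (adjusted p = 5.4e-07).

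Of the 13 tested inward rectifiers, 6 were lower in each 7-day knockout group, while 3 were higher in cGAS-KO and 4 in STING-KO. Over all genes, 22.4% were called lower and 27.8% higher in cGAS-KO, and 22.6% and 26.3% in STING-KO. The rises thus lay near the all-gene shares. In STING-KO those of Kcnj10 (0.56) and Kcnj8 (1.21) lost their calls without WT replicate 2. Kcnj10, the astrocyte channel that clears potassium, was the most abundant at 43.0 CPM per kilobase and stood between 168 and 344 CPM in every library. Kcnj4, an inward rectifier of striatal projection neurons, stood at 66.9 and 71.8 CPM in 7-day WT, 18.4 and 30.5 CPM in 7-day cGAS-KO, 19.8 and 20.5 CPM in 7-day STING-KO, 35.3 and 38.2 CPM in 14-day WT, 49.4 and 70.5 CPM in 14-day cGAS-KO and 58.8 and 152 CPM in 14-day STING-KO. The 14-day STING-KO libraries were both above WT but far from each other. Their difference from WT of 1.52 ± 0.37 (edgeR adjusted p = 0.00922) lost its call without STING-KO replicate 2 (0.66, adjusted p = 0.0796) or WT replicate 1 (1.45, adjusted p = 0.0713). In 7-day cGAS-KO the difference of -1.50 ± 0.37 (adjusted p = 0.00618) lost its call without cGAS-KO replicate 1 (-1.22, adjusted p = 0.0646).

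Kcnj6 and Kcnj9, subunits of G-protein-gated channels, were lower in both 7-day knockout groups. Kcnj6 stood at 32.5 and 39.5 CPM in 7-day WT and between 0.719 and 6.85 CPM elsewhere, with log2 changes of -3.35 ± 0.37 in 7-day cGAS-KO (edgeR adjusted p = 1.7e-05) and -2.97 ± 0.36 in 7-day STING-KO (adjusted p = 3.49e-05). Kcnj2, the classical strong rectifier, ran the other way from Kcnj6 and Kcnj9. It stood at 10.4 and 9.09 CPM in 7-day WT, 17.8 and 26.7 CPM in 7-day cGAS-KO, 35.4 and 40.0 CPM in 7-day STING-KO and 91.2 and 88.7 CPM in 14-day STING-KO, so that the 7-day WT libraries were its lowest.

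Kcnj13, the apical potassium channel of the choroid plexus, stood at 0.392 and 0.153 CPM in 7-day WT, 4.94 and 11.7 CPM in 7-day cGAS-KO and 7.39 and 5.82 CPM in 7-day STING-KO, and at 2.10 CPM or less in the 6 libraries of day 14. The 7-day knockout groups stood apart from all others, at 4.94 ± 0.82 (edgeR adjusted p = 0.000417) and 4.59 ± 0.84 (adjusted p = 0.000878). As 623 of its 1270 exon bases are shared with Gigyf2 on the opposite strand, its reads cannot be fully assigned. Kcne2, a small Kv subunit of the same epithelium, stood at 0.953 and 0.511 CPM in 7-day WT, 9.16 and 32.2 CPM in 7-day cGAS-KO and 14.9 and 12.4 CPM in 7-day STING-KO. It was again high only in the 7-day knockout libraries, by 4.83 ± 0.69 (adjusted p = 0.000156) and 4.23 ± 0.70 (adjusted p = 0.00049).

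The K2P genes, whose tandem-pore channels carry background potassium current, were called in both directions. In 7-day cGAS-KO 3 of 10 tested were higher and 7 lower, where 27.8% of all genes were called higher and 22.4% lower. In 7-day STING-KO 2 were higher and 6 lower, where the all-gene shares were 26.3% and 22.6%. The rises thus lay near the all-gene shares. Among them, Kcnk5 in cGAS-KO lost its call without cGAS-KO replicate 1 (1.89). Kcnk6 stood at 4.54 and 5.72 CPM in 7-day WT, 36.2 and 43.7 CPM in 7-day cGAS-KO and 55.4 and 53.3 CPM in 7-day STING-KO. Its WT level on day 14 was 37.1 and 33.8 CPM; cGAS-KO libraries had 26.3 and 27.1 CPM and STING-KO libraries 5.09 and 11.8 CPM. The 7-day WT and 14-day STING-KO libraries were its lowest and did not overlap with the rest, with log2 changes of 2.96 ± 0.30 in 7-day cGAS-KO (edgeR adjusted p = 8.76e-06) and -2.07 ± 0.29 in 14-day STING-KO (adjusted p = 0.000322). Kcnk13, the resting channel of microglia, was higher by 1.64 ± 0.23 in 7-day cGAS-KO (adjusted p = 9.18e-05). Kcnk2, the mechanosensitive TREK channel found in striatum, was higher by 1.49 ± 0.13 in 14-day STING-KO (adjusted p = 3.42e-05), at 147 and 143 CPM against 49.7 and 53.6 CPM, with 604 of its 4943 exon bases shared with an antisense gene.

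**Figure D4:**
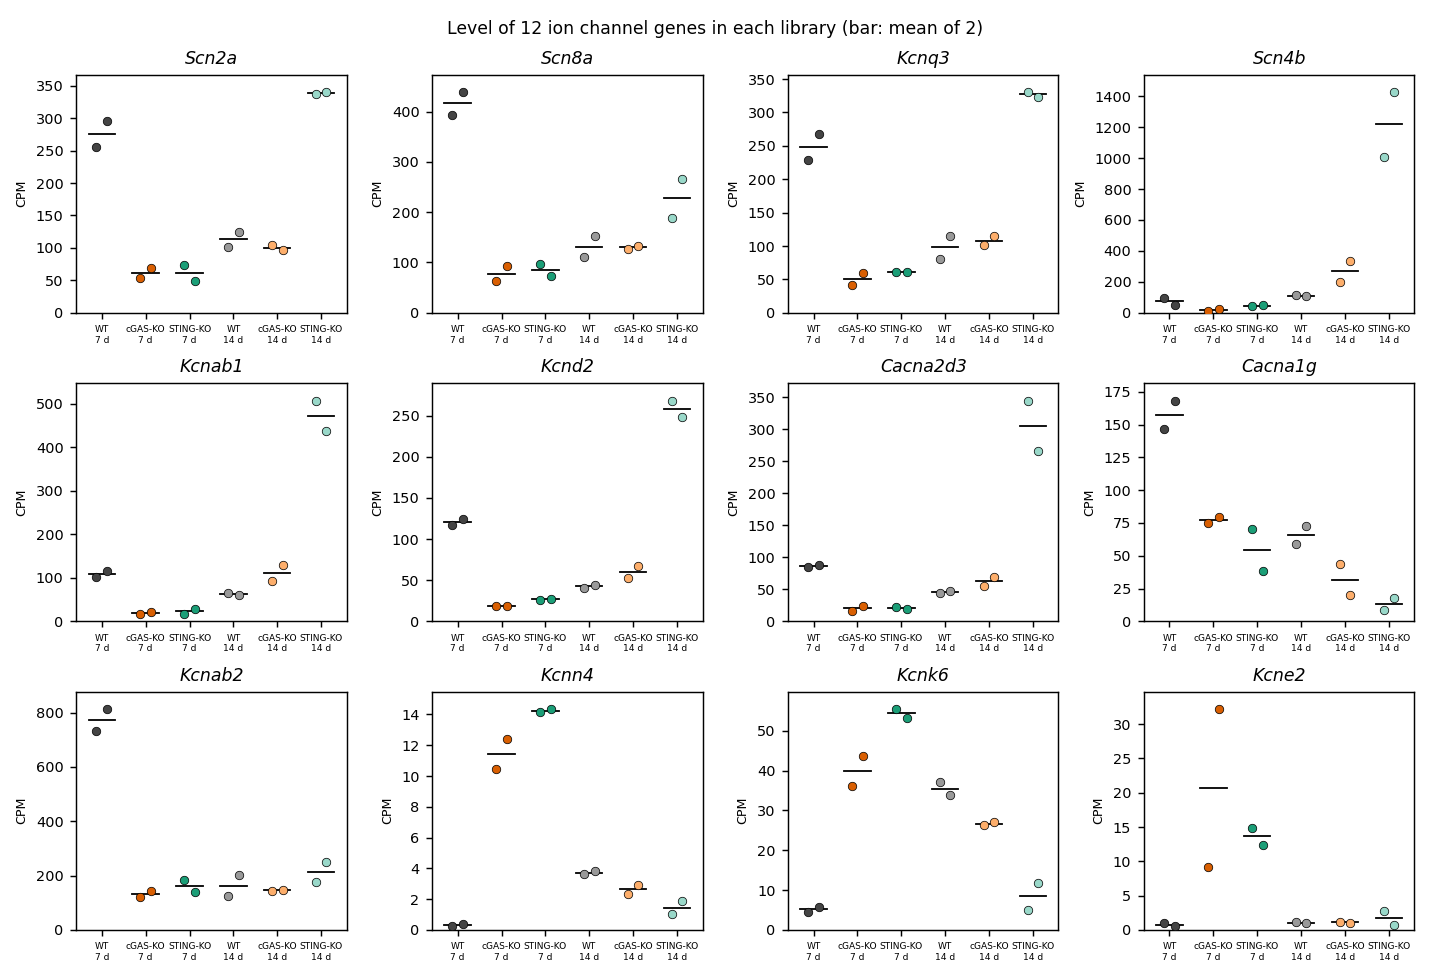
CPM (y axis) of 12 channel genes in each library, 2 points per group of genotype and day, with a bar at the mean of 2. Scn2a and Kcnq3 are high in 7-day WT and 14-day STING-KO, Kcnab2 in 7-day WT alone, Scn4b, Kcnab1, Kcnd2 and Cacna2d3 highest in 14-day STING-KO, and Kcnn4, Kcnk6 and Kcne2 in the 7-day knockout groups.

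Grouped by the cell type each is known from, the 8 genes of the axon initial segment and node, among them Scn2a, Scn8a, Scn2b, Kcnq3, Kcna1 and Kcna2, were all lower in both 7-day knockout groups, and 7 of 8 were higher in 14-day STING-KO. Of the genes named, Kcna1 and Kcna2 lost their 14-day call without WT replicate 1 (adjusted p = 0.191 and 0.115), and Kcna1 also without STING-KO replicate 2 (adjusted p = 0.216). The 10 general neuron markers moved alongside, with 10 lower in 7-day cGAS-KO, 9 lower in 7-day STING-KO and 5 higher in 14-day STING-KO, and their part in these results was not tested. Their mean log2(CPM + 0.5) was 8.95 and 9.03 in 7-day WT, 6.82 and 7.22 in 7-day cGAS-KO, 7.07 to 7.64 in 7-day STING-KO and 8.31 to 8.32 in 14-day STING-KO.

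The 7 striatal projection neuron channels (Scn4b, Kcnip2, Kcnab1, Kcnj4, Kcnk2, Kcnh4 and Cacna2d3) were all higher in 14-day STING-KO, with a median of 2.01, and 10 of 10 striatal projection neuron markers were higher there with a median of 2.74. Kcnh4 lost that call without WT replicate 1 (1.93, adjusted p = 0.0534), WT replicate 2 (1.85, adjusted p = 0.0532) or STING-KO replicate 2 (1.28, adjusted p = 0.0691), and Kcnj4 without WT replicate 1 (1.45, adjusted p = 0.0713) or STING-KO replicate 2 (0.66, adjusted p = 0.0796). In 7-day cGAS-KO 6 of the 7 channels were lower (Kcnk2, at -0.40, lost its call without cGAS-KO replicate 2 or either WT replicate, adjusted p from 0.0857 to 0.106, and Kcnj4 without cGAS-KO replicate 1, adjusted p = 0.0646), while none of the 10 markers was lower and 2 were higher. In 7-day STING-KO 5 of the 7 channels were lower, 0 of the 10 markers were lower and 2 were higher; Scn4b (-0.65, adjusted p = 0.188) and Kcnh4 (0.19, adjusted p = 0.765) were not called. The 7-day WT libraries had channel means of 5.90 and 5.91 on the log2(CPM + 0.5) scale against 3.98 to 4.66 in 7-day cGAS-KO and 4.51 to 4.58 in 7-day STING-KO. Their marker means were 3.94 and 3.84, within the ranges of 3.50 to 5.12 and 3.59 to 5.21 in those knockout groups. The 8 pyramidal neuron markers were highest in those WT libraries (6.92 and 7.26), and their part in the channel levels was not tested.

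The 5 pyramidal neuron channels, among them Kcnv1, Kcnf1, Kcnh3 and Cacng3, were lower in both 7-day knockout groups and 4 of 5 were higher in 14-day STING-KO, where 6 of the 8 pyramidal markers were lower. Of those 4, Kcnv1, Kcnf1 and Kcnh3 lost that call without WT replicate 1 (adjusted p = 0.0593, 0.0879 and 0.21), Kcnf1 also without STING-KO replicate 1 (adjusted p = 0.0759) and Kcnh3 also without STING-KO replicate 2 (adjusted p = 0.31) or WT replicate 2 (adjusted p = 0.0631). Kcnh3 lost its 7-day calls as well, in cGAS-KO without cGAS-KO replicate 1 (adjusted p = 0.107) or WT replicate 2 (adjusted p = 0.104) and in STING-KO without STING-KO replicate 2 (adjusted p = 0.0756) or WT replicate 2 (adjusted p = 0.0768). The 4 fast-spiking interneuron channels (Scn1a, Kcnc1, Kcnc2 and Kcns3) and the 3 thalamic channels, among them Cacna1g and Hcn4, were all lower in both 7-day knockout groups, and in 14-day STING-KO each list had 1 gene higher and 1 lower. The lower interneuron gene, Kcnc2, lost that call without WT replicate 2 (adjusted p = 0.221), STING-KO replicate 1 (adjusted p = 0.113) or STING-KO replicate 2 (adjusted p = 0.132). The higher thalamic gene, Hcn4, lost it without WT replicate 1 (adjusted p = 0.0663), WT replicate 2 (adjusted p = 0.25) or STING-KO replicate 2 (adjusted p = 0.253).

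Of the 4 myeloid and lymphoid channels, Kcnn4, Kcnk6 and Kcnk13 were higher in both 7-day knockout groups. Kcna3, a channel of T cells and microglia that neurons also express, was not called and ranged from 1.28 to 5.47 CPM over the 12 libraries. In 14-day STING-KO Kcnn4 and Kcnk6 were lower, and the Kcnn4 call was lost without STING-KO replicate 1 (-0.97, adjusted p = 0.0826). All 8 microglia and macrophage markers moved with them, higher in both 7-day knockout groups and lower in 14-day STING-KO. Their mean log2(CPM + 0.5) was 3.99 to 4.29 in 7-day WT, 8.43 to 8.90 over the 7-day knockout libraries, 7.43 to 7.81 in 14-day WT and cGAS-KO and 4.70 to 5.99 in 14-day STING-KO. Their part in the channel changes was not tested.

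Both choroid plexus channels, Kcne2 and Kcnj13, rose with 6 of 6 choroid plexus markers in each 7-day knockout group. The marker mean was 2.4 to 2.97 in 7-day WT and 5.86 to 6.83 over the 7-day knockout libraries, and Ttr, the transthyretin gene of that epithelium, stood at 102 and 49.5 CPM in 7-day WT and at 2374 and 4202 CPM in 7-day cGAS-KO. The part of choroid plexus tissue was not tested. Of the 3 vascular wall channels (Kcnj8, Kcnmb1 and Kcna5), Kcnj8 and Kcnmb1 were higher in both 7-day knockout groups. In STING-KO both calls were lost without WT replicate 2 (adjusted p = 0.0666 and 0.0642). Mural cell markers were higher for 6 of 6 genes in 7-day cGAS-KO and 5 of 6 in 7-day STING-KO, and their part was not tested. The astrocyte and oligodendrocyte precursor list (Kcnj10, Kcnj16 and Cacng4) had no call in 7-day cGAS-KO and 1 gene higher, Kcnj10, in 7-day STING-KO, a call lost without STING-KO replicate 2 (0.41, adjusted p = 0.162) or WT replicate 2 (0.56, adjusted p = 0.1).

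**Figure D5:**
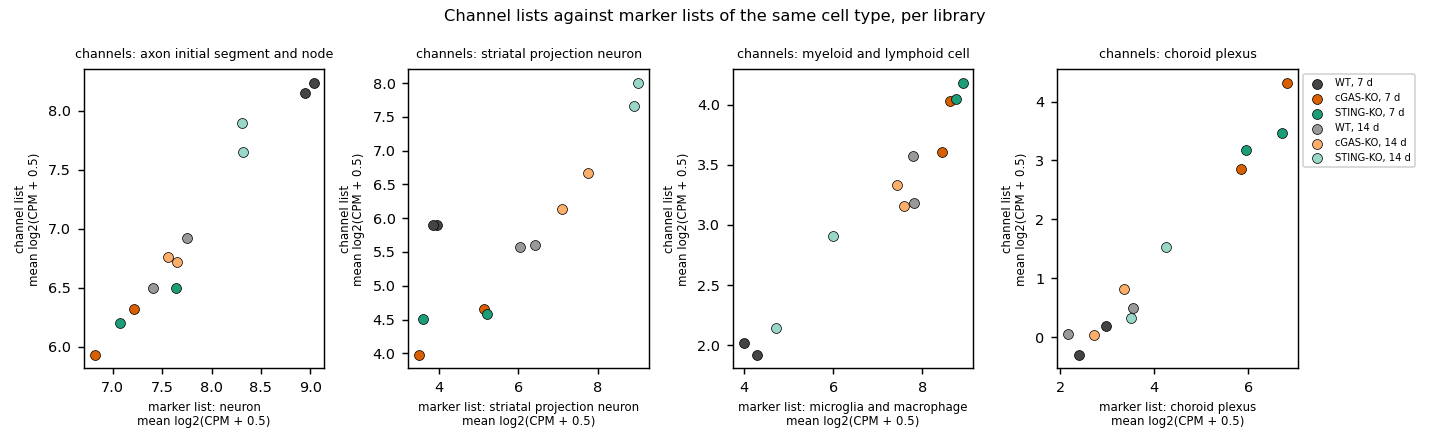
Each panel plots, per library, the mean log2(CPM + 0.5) of a channel list (y axis) against that of a marker list of the same cell type (x axis), coloured by group. The myeloid and choroid plexus channels lie high where their markers lie high, whereas the 7-day WT libraries of the striatal panel sit at 5.90 and 5.91 on the channel axis with marker means of 3.94 and 3.84.

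Scn4b, Kcnd2 and Kcnj4 were higher in 14-day STING-KO than in 14-day WT. Kcnj4 was uneven there, at 58.8 and 152 CPM, against 66.9 and 71.8 CPM in 7-day WT. Start regions of these genes are printed beside those of Kcnn4 and Kcnj13, which were high in the 7-day knockout groups. Each runs from 250 bases before to 50 bases after a RefSeq gene start on build GRCm38.p6, which shares its coordinates with mm10, 5′ to 3′ on the gene's strand. Capitals mark matches, on either strand, to the GC box GGGCGG, to the RE1 element's left part CAGCACC and its right part, which is GGACAGC, to the PU.1 type site GAGGAAGT or to the TATA box TATAAA, and no matches overlap in these windows.
Scn4b, chr9:45138374-45138673, plus strand: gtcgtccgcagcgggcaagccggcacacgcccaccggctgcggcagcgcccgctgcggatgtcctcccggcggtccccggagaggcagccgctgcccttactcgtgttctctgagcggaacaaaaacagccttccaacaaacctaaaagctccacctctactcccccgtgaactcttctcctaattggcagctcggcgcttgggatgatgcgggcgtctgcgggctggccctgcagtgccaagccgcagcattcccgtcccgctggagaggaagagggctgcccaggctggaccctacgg
Kcnd2, chr6:21215096-21215395, plus strand: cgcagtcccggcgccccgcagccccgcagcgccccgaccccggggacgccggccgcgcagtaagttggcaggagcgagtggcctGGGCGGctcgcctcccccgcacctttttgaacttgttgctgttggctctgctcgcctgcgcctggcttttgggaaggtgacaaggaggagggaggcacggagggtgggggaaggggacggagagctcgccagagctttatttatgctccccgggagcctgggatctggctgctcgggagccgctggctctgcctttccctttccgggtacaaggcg
Kcnj4, chr15:79505192-79505491, minus strand: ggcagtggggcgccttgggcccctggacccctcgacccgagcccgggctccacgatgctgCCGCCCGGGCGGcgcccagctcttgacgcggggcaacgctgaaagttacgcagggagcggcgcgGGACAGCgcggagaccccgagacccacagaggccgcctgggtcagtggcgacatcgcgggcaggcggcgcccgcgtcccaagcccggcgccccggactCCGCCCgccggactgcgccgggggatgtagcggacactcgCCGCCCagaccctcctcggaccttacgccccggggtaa
Kcnn4, chr7:24370013-24370312, plus strand: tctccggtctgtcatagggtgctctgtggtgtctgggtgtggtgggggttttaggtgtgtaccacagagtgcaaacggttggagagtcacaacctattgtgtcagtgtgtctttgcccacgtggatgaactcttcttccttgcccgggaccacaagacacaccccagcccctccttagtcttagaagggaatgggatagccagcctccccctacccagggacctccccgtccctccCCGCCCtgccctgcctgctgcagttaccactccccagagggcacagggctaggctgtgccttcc
Kcnj13, chr1:87394680-87394979, minus strand: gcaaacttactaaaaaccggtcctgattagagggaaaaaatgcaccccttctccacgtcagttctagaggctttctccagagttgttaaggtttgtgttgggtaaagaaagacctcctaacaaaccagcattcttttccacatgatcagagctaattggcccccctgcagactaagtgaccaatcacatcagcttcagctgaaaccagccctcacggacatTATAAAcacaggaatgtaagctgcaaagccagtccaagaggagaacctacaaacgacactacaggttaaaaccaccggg

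Scn4b holds none of the 5 motifs in its window, Kcnd2 and Kcnn4 hold a GC box each, Kcnj4 holds 4 GC boxes and a GGACAGC, and Kcnj13 holds a TATA box. RefSeq start regions were found for 99 of the 136 channel genes, 135 regions in all. Of those, 45.9% hold a GC box against 35.7% of all 32851 regions in the table, 5.19% hold TATAAA against 13.6%, 7.41% hold CAGCACC against 7.14%, 9.63% hold GGACAGC against 6.56%, and 0 hold GAGGAAGT against 3.20%.

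Proteins that bind or regulate these channels were followed as a separate list of 28 genes, of which 27 were tested. In 7-day cGAS-KO 22 were lower and 2 higher, where 22.4% of all genes were called lower and 27.8% higher. In 7-day STING-KO 20 were lower and 2 higher, where the all-gene shares were 22.6% and 26.3%. In 14-day STING-KO 16 were higher and 3 lower, where 16.5% of all genes were called higher and 17.4% lower. Nalcn, the sodium leak channel, stood at 109 and 115 CPM in 7-day WT, 26.1 and 29.6 CPM in 7-day cGAS-KO and 176 and 169 CPM in 14-day STING-KO. Fgf13 and Fgf14, intracellular proteins that bind sodium channel tails, differed in how their 14-day STING-KO levels stood against 7-day WT. Fgf14 stood at 15.6 and 17.5 CPM in 14-day WT. In 14-day STING-KO it stood at 69.6 and 71.2 CPM, above the 31.7 and 26.1 CPM of 7-day WT. Fgf13 reached 93.3 and 82.2 CPM, below the 202 and 226 CPM of 7-day WT. Hvcn1, the voltage-gated proton channel of phagocytes, ran with Kcnn4, at 1.07 and 1.12 CPM in 7-day WT and 31.3 to 37.4 CPM over the 7-day knockout libraries, a rise of 4.84 ± 0.37 in cGAS-KO (edgeR adjusted p = 1.3e-06).

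Between 7 and 14 days, 70 channel genes fell and 11 rose in WT, where 19.7% of all genes fell and 24.1% rose, with a median log2 change of -1.06. In cGAS-KO 40 rose and 13 fell, where 13.4% of all genes rose and 17% fell, with a median of 0.54. Leaving out replicate 1 of the 7-day cGAS-KO group brought that count of 53 to 32. In STING-KO 66 rose and 21 fell, where 27.4% of all genes rose and 29.5% fell, with a median of 1.05. The WT and STING-KO courses share no library, and 42 of the 70 genes that fell in WT (60%) rose in STING-KO, against 35.1% of all genes that fell in WT. The same 42 were 63.6% of the 66 channel genes that rose in STING-KO, against 25.3% over all genes. Of the 120 tested channel genes, 70 fell in WT and 66 rose in STING-KO, where 19.7% and 27.4% of all genes did. The all-gene shares are thus not a like base, and no reversal particular to channel genes can be read from them.

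In WT the larger falls among genes averaging at least 1 CPM included those of Kcng2 (-4.32 ± 0.35, edgeR adjusted p = 5.76e-06), Kcnab3 (-3.30), Cacng8 (-3.25 ± 0.36) and Hcn4 (-2.90 ± 0.43). The largest rises were those of Kcnn4 (3.51 ± 0.43), Kcnk6 (2.78 ± 0.30), Kcnmb1 (2.51 ± 0.45), Kcnj2 (2.42 ± 0.24) and Kcna5 (1.60 ± 0.27). Between days, Scn4b rose by 3.83 ± 0.43 in cGAS-KO (adjusted p = 0.000146) and 4.70 ± 0.44 in STING-KO (adjusted p = 7.22e-06), and Kcnab1 by 2.58 ± 0.25 (adjusted p = 5.32e-05) and 4.33 ± 0.27 (adjusted p = 3.72e-07).

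The knockout effects themselves differed between the days. The cGAS-KO difference from WT was called more positive at 14 than at 7 days for 74 channel genes and more negative for 9, where 15.7% and 21% of all genes were called so. For the STING-KO difference the counts were 76 and 8, where 24.3% and 27.6% of all genes were called so. Both differences share the WT libraries of each day. For Kcnd2 the STING-KO effect was 4.78 ± 0.22 higher at 14 days (edgeR adjusted p = 6.08e-08), and for Kcnk6 it was -5.47 ± 0.42 (adjusted p = 8.21e-07). In a fit without 7-day WT and 14-day STING-KO, the 2 groups with the most channel transcripts, 55 channel genes were called between days in cGAS-KO, against 53 with all groups.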

How the data were processed

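Per the submitters' processing notes, the tools named are HISAT2 and featureCounts and the build is mm10; their settings, strand use and annotation release are not given in the sources used here. The authors deposited whole-number read counts per gene for each library. Symbols, exon lengths and overlaps came from GENCODE M21, and start regions from RefSeq (GRCm38.p6). Genes were kept by filterByExpr (minimum count 10, total 15), scaled by TMM and tested in edgeR 4.0.16 (R 4.3.3, limma 3.58.1) with a quasi-likelihood fit over 6 groups, which left 6 residual degrees of freedom and a common biological coefficient of variation of 0.194. P-values were adjusted over 19822 genes. DESeq2 1.42.0, other filters, a replicate block and leaving out each library were alternatives. Figures used Python 3.11.15 and matplotlib 3.10.9. Depth ran from 15956242 to 22126213 counts, and 3 counts set the floor per library, which covers counting error only.

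The members and gene lists were chosen with earlier results of these data known. Genes were named by rule: the 3 highest per family by CPM per kilobase, the 5 largest called rises and falls per comparison (3 for differences of effects) averaging at least 1 CPM, and every gene on a cell type list. Some channel genes that the rule names count in the totals but are not reported here. Replicates of a group differed beyond sampling noise, and all 12 libraries were used.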

Additional observations from a re-analysis of the deposited data

Results flagged for a closer look

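The knockout effects differed between days, by a test of the difference itself in edgeR's quasi-likelihood fit, for 83 channel genes in cGAS-KO and 84 in STING-KO. In cGAS-KO the effect was higher at 14 than at 7 days for Kcng2 (log2 difference 4.424) and Cacng8 (3.456). It was lower for Kcnn4 (-5.625), Kcne2 (-4.695) and Kcnj13 (-4.408). The Kcne2 call was lost without 14-day WT replicate 1 (adjusted p = 0.0673). The Kcnj13 call was lost when any of 5 libraries was left out, namely 14-day cGAS-KO replicate 2 (adjusted p = 0.0663), 14-day WT replicate 2 (0.49), 7-day cGAS-KO replicate 2 (0.0709) and 7-day WT replicates 1 (0.0691) and 2 (0.123). Kcnj13 stood at the floor of 3 counts in 7-day WT replicate 2 and 14-day WT replicate 1.

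In STING-KO the effect was higher at 14 days for Kcng3 (6.864), Kcnab1 (5.137) and Kcnd2 (4.785), and lower for Kcnn4 (-6.814), Kcnk6 (-5.473) and Kcne2 (-3.461). Kcng3 had 2 counts in each 7-day STING-KO library (0.115 and 0.106 CPM), under the floor of 3 counts, so its fitted value depends on the prior count and is no measure of size. Its level was 1.85 and 3.27 CPM in 7-day WT, 0.409 and 1.59 CPM in 14-day WT and 3.96 and 6.83 CPM in 14-day STING-KO. The Kcne2 call was lost when any of 7 libraries was left out, every one of the 7-day WT, 7-day STING-KO and 14-day WT groups and 14-day STING-KO replicate 2 (adjusted p from 0.05 to 0.12). Both sets of differences share the WT libraries of each day.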

How the results depend on the processing

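Of 211 named gene and comparison pairs called, 163 stayed called under every alternative run for them, 48 lost the call under some and 0 reversed. DESeq2's Wald test called 1 channel gene between cGAS-KO and WT at 14 days and 5 between the knockouts at 7 days, where edgeR called 0, and testing with no filter called 1 in the latter. Leaving out each library in turn gave 87 to 93 called channel genes for cGAS-KO at 7 days, 81 to 89 for STING-KO at 7 days, 0 to 0 for cGAS-KO at 14 days, 51 to 56 for STING-KO at 14 days, 0 to 0 and 36 to 52 between the knockouts at 7 and 14 days, 57 to 75 between days in WT, 32 to 54 in cGAS-KO and 72 to 78 in STING-KO, and 66 to 88 and 74 to 83 for the differences of the cGAS-KO and STING-KO effects. The cause was not tested. With the replicate number as a block, 102 and 93 channel genes were called for cGAS-KO and STING-KO at 7 days and 72 for STING-KO at 14 days. Over all genes, same-numbered libraries did not clearly deviate together (r from -0.092 to 0.196). Such a check cannot exclude an effect shared by few genes, so whether the numbers pair the libraries is not known. With 2 libraries per group, small differences of low-count genes are not detectable at this depth.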
